A study of Homo sapiens with 4 samples.

Results

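The genes described here are those that make microRNAs (miRNAs) and those that put them to work: DROSHA, DGCR8, XPO5, DICER1, TARBP2, the Argonaute genes EIF2C1 to EIF2C4 and TNRC6A. They were taken as the non-control probes that carry one of these gene names in the scanner files. All 10 genes were found, with 14 of the 34127 probes on the array. XPO5 had 3 probes, EIF2C1 and EIF2C3 had 2 each, and the other genes had 1. The array uses the older Argonaute names; by accession, EIF2C1, EIF2C2, EIF2C3 and EIF2C4 are now AGO1, AGO2, AGO3 and AGO4.

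The cells were THP1, a human monoblastic cell line from acute myeloid leukemia (AML) that carries the fusion gene MLL-AF9, so that both groups share this fusion and the background of 1 line. They were treated once with 30 nM of miRNA mimic, kept in low-serum medium and harvested on day 2. One group received hsa-miR-511-5p mimic and the other control mimic #1, a mimic meant as negative control, and no untreated cells were analysed here. Each of 2 independent experiments gave 1 array per mimic, 4 single-dye (Cy3) Agilent arrays in all. Between 64.8% and 69.3% of all probes were well above background per array. Of 12 monoblast marker genes looked for, 10 were found by name, and all of their 14 probes (PTPRC, SPI1, CEBPA, MPO, CD33, CSF1R, ITGAM, CD14, LYN and MNDA) were well above background on all 4 arrays. Among genes of other lineages, all probes of MS4A1, EPCAM, NCAM1, COL1A1 and ALB were well above background on no array, that of CD3E was so on 3 arrays, and those of CD3D, PECAM1 and KRT18 were so on all 4.

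A miRNA starts as a hairpin in a long primary transcript. In the nucleus, the Microprocessor, made of the RNase DROSHA and its RNA-binding partner DGCR8, cuts the hairpin out, and exportin 5 (XPO5) carries it to the cytoplasm. There DICER1, with its partner TARBP2, trims it to a short duplex, 1 strand of which is loaded into an Argonaute protein. Argonaute finds target transcripts mainly through the seed of the miRNA, and TNRC6 proteins such as TNRC6A recruit the machinery that removes the poly(A) tail and blocks translation. A transfected mimic is already a short duplex. It enters this pathway at the loading step and thus shares Argonaute and TNRC6 proteins with the miRNAs of the cell.

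The mature sequence of the transfected miRNA is shown because its seed defines the sites searched for. It lies at chr10:17845122-17845142 on the plus strand (GRCh38.p14, RefSeq), and the capitals mark the seed, bases 2 to 8 from the 5′ end.
hsa-miR-511-5p: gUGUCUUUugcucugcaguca
A full match to this seed reads AAAGACA in the transcript strand. The 60-base probes have the sense of their transcripts, so they were searched on that strand alone. The match was present in 331 of the 34127 probes (0.97%) and in 1 of the 14 probes of these genes, an EIF2C1 probe. The 30 bases around it are shown with the match in capitals, at chr1:36389862-36389891 on the plus strand of hg19 (the build of the array's annotation).
EIF2C1 probe, bases 23 to 52: ctgtgttttatAAAGACAacagtggcttct
The match is followed by an A, and the longer word AAAGACAA was found in 105 probes (0.308%). A match within a probe is a description of its letters. Whether it lies in coding or untranslated sequence, and the transcripts outside the probes, were not analysed here.

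All 14 probes were well above background on all 4 arrays, with no saturated spot and no outlier mark on any of their 23 spots per array, and none of the 10 genes passed the test. By the moderated test of limma, 0 of the 14 probes passed the unadjusted threshold of the study, a p below 0.05, in either direction, and all had an adjusted p = 1.00 after Benjamini-Hochberg correction. A plain t-test of each probe also passed 0 of them, beside 708 (3.13%) of all tested probes. Among all 22638 tested probes, 498 (2.20%) passed the unadjusted threshold and 0 passed adjustment, so that 0 of 14 lies near the background. These 498 were 287 higher (1.27% of the tested probes) and 211 lower (0.932%) with miR-511 mimic (42.4% of them lower, but 54.8% lower when arrays were scaled to their 75th percentile). Permuting 2 arrays against 2 allows no exact two-sided p smaller than 0.333 for any 1 probe. In total RNA from a culture, fewer cells of a type and less RNA per cell cannot be told apart.

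The log2 fold change (log2FC, miR-511 minus control mimic, on the scale of quantile-normalized log2 intensities) was below 0.1 in size for 12 of the 14 probes. The median size was 0.038 for these probes, 0.079 for all tested probes, and 0.076 for tested probes well above background on all 4 arrays. All 14 of the 95% intervals held 0. The widest, of 1 XPO5 probe with a large spread between arrays, ran from -1.28 to 2.44. Over the other 13 probes, the lowest lower bound was -0.42, of EIF2C4, and the highest upper bound was 0.51, of TNRC6A, which are ratios of 0.748 and 1.42.

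**Figure D1:**
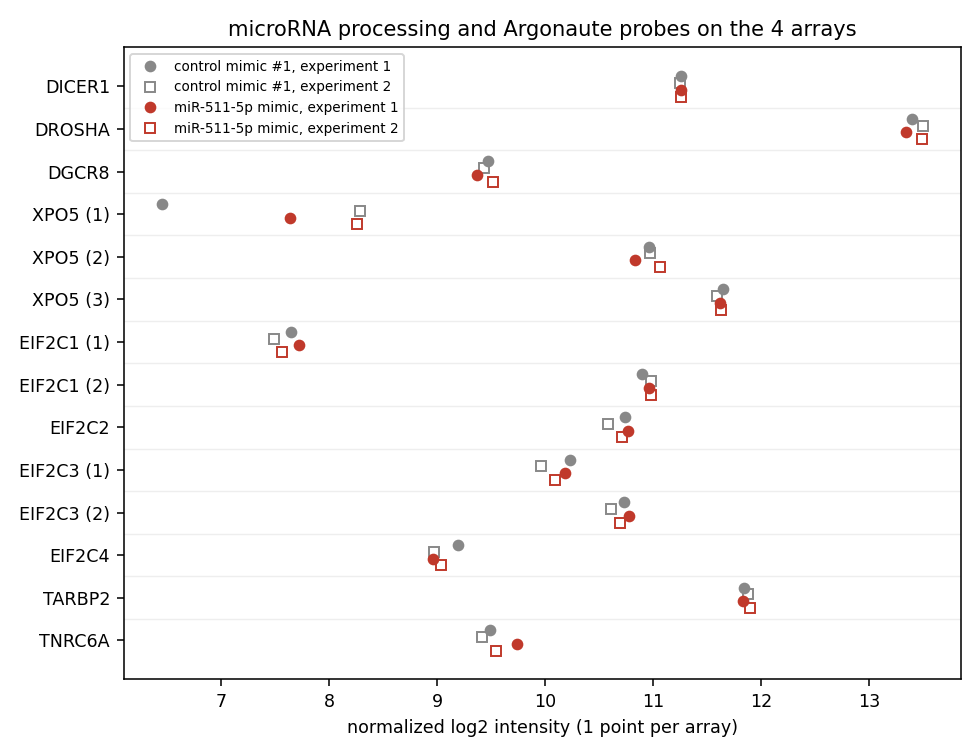
Normalized log2 intensity (x axis) of each probe (rows) on the 4 arrays, gray for control mimic #1 and red for miR-511-5p mimic, filled circles for experiment 1 and open squares for experiment 2. XPO5 (1), (2) and (3) are the probes starting at 43491398, 43494424 and 43490583, EIF2C1 (1) and (2) those at 36386500 and 36389840, and EIF2C3 (1) and (2) those at 36439052 and 36521552. The 4 points of most probes lie close together, whereas those of XPO5 (1) reach from 6.45 to 8.29.

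The Microprocessor genes came first in the pathway. DROSHA, the nuclear RNase, was measured on chromosome 5 (31401473 to 31401532, in hg19 as are the positions that follow). Normalized log2 values were 13.34 and 13.49 with miR-511 mimic and 13.40 and 13.50 with the control mimic (experiments 1 and 2). The groups overlapped, and with both mimics experiment 2 was the higher one. Its log2FC was -0.035 (standard error 0.11, 95% interval -0.33 to 0.26). DGCR8, which recognizes the hairpin, was measured on chromosome 22 from 20098916 to 20098975, with 9.37 and 9.52 against 9.47 and 9.43. The difference was -0.10 in experiment 1 and 0.087 in experiment 2, which left a log2FC of -0.0084 (standard error 0.10, interval -0.29 to 0.27).

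XPO5, the export receptor of the hairpin, was read at 3 places within 3901 bases of chromosome 6. At the brightest probe, from 43490583 to 43490642, the log2 values were 11.62 and 11.63 with miR-511 mimic and 11.65 and 11.59 with the control mimic, a log2FC of 0.0046 (standard error 0.090, interval -0.24 to 0.25). The probe from 43494424 to 43494483 had values of 10.83 and 11.06 against 10.96 and 10.97 and a log2FC of -0.020 (standard error 0.12). Both probes placed the difference near 0, with intervals that ended at -0.34 and 0.30 at the widest.

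The probe of XPO5 that lies between them, from 43491398 to 43491457, had the widest spread of the 14. It was the dimmest of the XPO5 probes, though well above background on all 4 arrays. Its log2 values were 7.64 with miR-511 and 6.45 with control mimic in experiment 1, and 8.25 and 8.29 in experiment 2. The control array of experiment 1 was thus the lowest of the 4, with a processed intensity of 93.9 where the others had 175 (miR-511, experiment 1), 328 (miR-511, experiment 2) and 309 (control, experiment 2). The lowest intensity called well above background on that array was 9.07. The difference between the mimics was 1.19 in experiment 1 and -0.031 in experiment 2, and the 2 control arrays differed by 1.84. The log2FC was thus 0.58 with an interval from -1.28 to 2.44 (standard error 0.68). Leaving out the control array of experiment 2 gave a log2FC of 1.5 and an unadjusted limma p of 0.0192, the only pass among these probes in any setting (as did 709 of all 23658 tested probes in that fit), and leaving out the control array of experiment 1 turned it to -0.34. At the brightest XPO5 probe, the control array of experiment 1 was the highest of the 4, and why the probes differ was not tested.

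**Figure D2:**
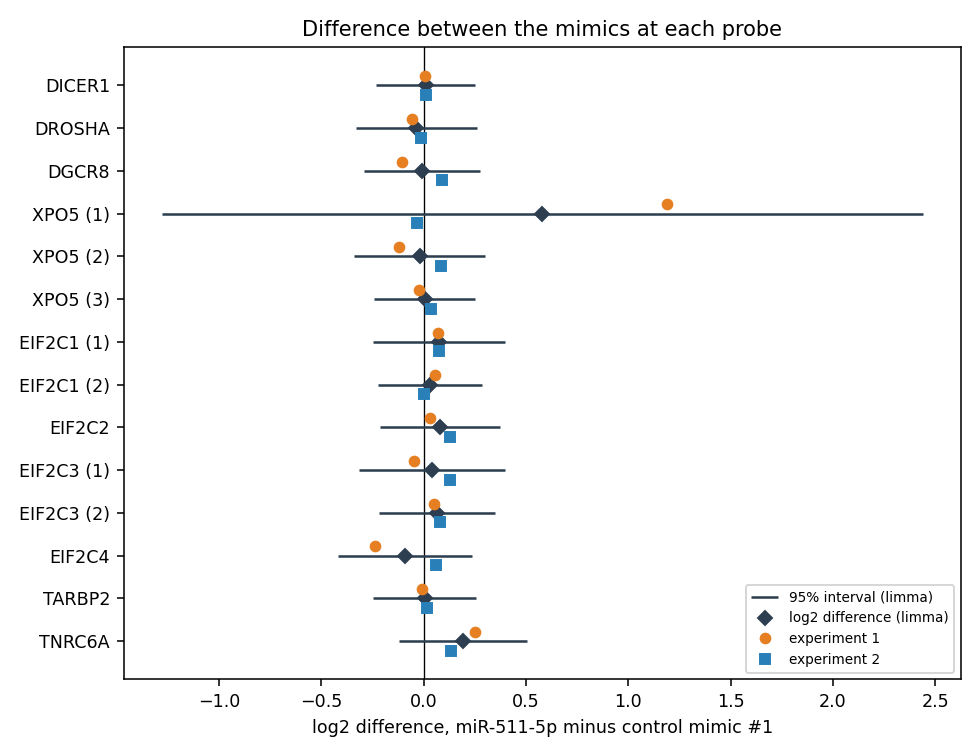
Log2 difference between miR-511-5p and control mimic #1 (x axis) for each probe (rows, numbered as in the plot of intensities). Circles and squares are the differences within experiments 1 and 2, diamonds the limma estimate over both, and lines its 95% interval. All 14 lines cross 0, and XPO5 (1), with 1.19 in experiment 1 and -0.031 in experiment 2, has the longest.

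In the cytoplasm, both genes of the Dicer step had a log2FC near 0. DICER1, which cuts the hairpin to a duplex, was measured on chromosome 14 from 95552615 to 95552674. Its log2 values were 11.26 on both miR-511 arrays and 11.26 and 11.25 on the control arrays. The groups did not overlap, but the gaps were only 0.0054 in experiment 1 and 0.013 in experiment 2, and the log2FC was 0.0094 (standard error 0.088, interval -0.23 to 0.25). Its standard error is set by the spread that limma shares across probes, as its own 4 values lay within hundredths of each other. TARBP2, the double-stranded RNA-binding partner of DICER1, was measured on chromosome 12 from 53899897 to 53899956. Its values were 11.83 and 11.90 with miR-511 and 11.84 and 11.88 with control mimic, and its log2FC was 0.0057 (standard error 0.092, interval -0.25 to 0.26).

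The 4 Argonaute genes encode the proteins that hold the guide strand, and of these AGO2 is the one best known to cut a fully matched target. EIF2C2 (AGO2) was measured by a probe printed 10 times, on chromosome 8 from 141541947 to 141542006. The means of the 10 spots were 10.77 and 10.71 with miR-511 mimic and 10.74 and 10.58 with control mimic. Within an array the spots had an SD of 0.048 to 0.091, and those of the array with the lowest mean overlapped with the spots of the other arrays. Its control array of experiment 2 was the lowest, the groups overlapped, and the log2FC was 0.079 (standard error 0.11, interval -0.21 to 0.37).

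**Figure D3:**
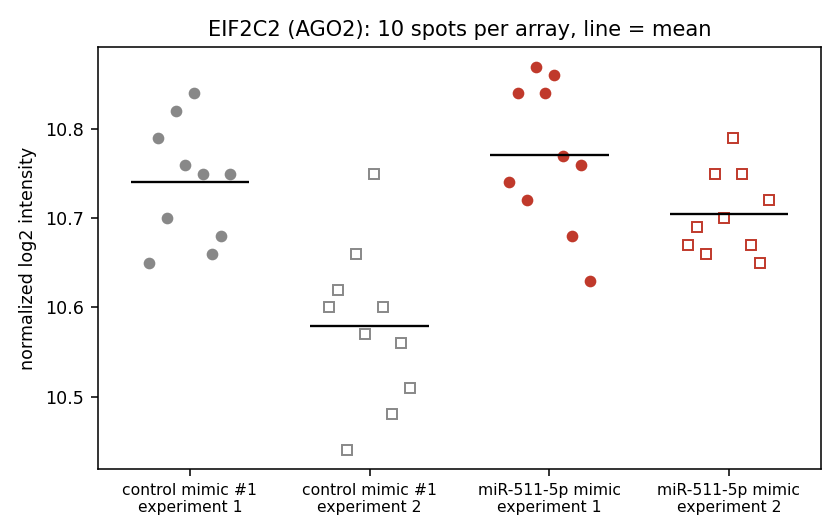
Normalized log2 intensity (y axis) of the 10 spots of the EIF2C2 probe on each array (x axis), with the mean as a line; spots are repeats on 1 array, not replicates of a treatment. The spots of the control array of experiment 2 reach from 10.44 to 10.75, and their mean, 10.58, is the lowest of the 4.

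The other Argonaute genes, EIF2C4, EIF2C1 and EIF2C3, follow each other on chromosome 1 (order from RefSeq, GRCh38.p14), and their 5 probes lie within 201.2 kb of hg19. EIF2C1 (AGO1) had values of 10.96 and 10.98 with miR-511 and 10.90 and 10.98 with control mimic at the probe from 36389840 to 36389899, the one that holds the seed match. Its log2FC was 0.029 (standard error 0.093, interval -0.23 to 0.28). At its dimmer probe, from 36386500 to 36386559, the values were 7.72 and 7.56 against 7.65 and 7.48. The difference was 0.070 in experiment 1 and 0.076 in experiment 2, smaller than the difference between the experiments, which was -0.16 with either mimic (experiment 2 minus 1). The log2FC was 0.073 (standard error 0.12, interval -0.25 to 0.40). The estimates of both EIF2C1 probes were slightly above 0, and both intervals held a decrease as well as an increase.

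EIF2C3 (AGO3) had values of 10.78 and 10.69 with miR-511 and 10.73 and 10.61 with control mimic at the brighter probe, from 36521552 to 36521611, and a log2FC of 0.065 (standard error 0.10, interval -0.22 to 0.35). Its other probe, from 36439052 to 36439111, had 10.18 and 10.09 against 10.23 and 9.97 and a log2FC of 0.041 (standard error 0.13). The intervals of both probes held 0, and at both the control array of experiment 2 was the lowest. EIF2C4 (AGO4), from 36320420 to 36320479, was the Argonaute gene with the largest difference within an experiment. Its values were 8.96 and 9.03 with miR-511 and 9.20 and 8.97 with control mimic, a difference of -0.24 in experiment 1 and 0.058 in experiment 2. The log2FC was -0.090 (standard error 0.12, interval -0.42 to 0.24), and the control arrays of the 2 experiments differed by -0.22 (experiment 2 minus 1). How far these probes also bind the transcripts of related Argonaute genes was not analysed here.

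TNRC6A, a scaffold protein that links Argonaute to deadenylation, was measured on chromosome 16 from 24835610 to 24835669. Its log2 values were 9.74 and 9.54 with miR-511 mimic and 9.49 and 9.41 with control mimic. Both miR-511 arrays lay above both control arrays, but the lower miR-511 array (9.54) was close to the higher control array (9.49). The difference between the mimics was 0.25 in experiment 1 and 0.13 in experiment 2. The miR-511 arrays themselves differed by -0.20 (experiment 2 minus 1). The log2FC of 0.19 (standard error 0.11, interval -0.12 to 0.51) was the largest of the 10 genes outside the dimmest XPO5 probe, and it did not pass the unadjusted threshold of limma. Fits that left out 1 array each gave 0.094 to 0.29. With the experiment as a block the fit gave the same 0.19, with a standard error of 0.084 and an unadjusted limma p of 0.109.

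The arrays of the mimics did not overlap at 2 of the 14 probes (14.3%), those of DICER1 and TNRC6A, both with miR-511 mimic above. Over all tested probes they did not overlap at 25.7%, with miR-511 above at 15.6% and below at 10.1%. The difference had the same sign in both experiments at 7 of 14 probes, and at 51.0% of all tested probes. For these genes the mimics differed by no more, in the median, than the experiments. The median size was 0.057 between mimics in experiment 1 and 0.067 in experiment 2, and 0.090 between the control arrays and 0.091 between the miR-511 arrays of the 2 experiments. Over all tested probes the same medians were 0.11, 0.10, 0.14 and 0.15. Of the 14 probes, 11 differed by less than 0.1 between mimics in experiment 2 and 9 did so in experiment 1.

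**Figure D4:**
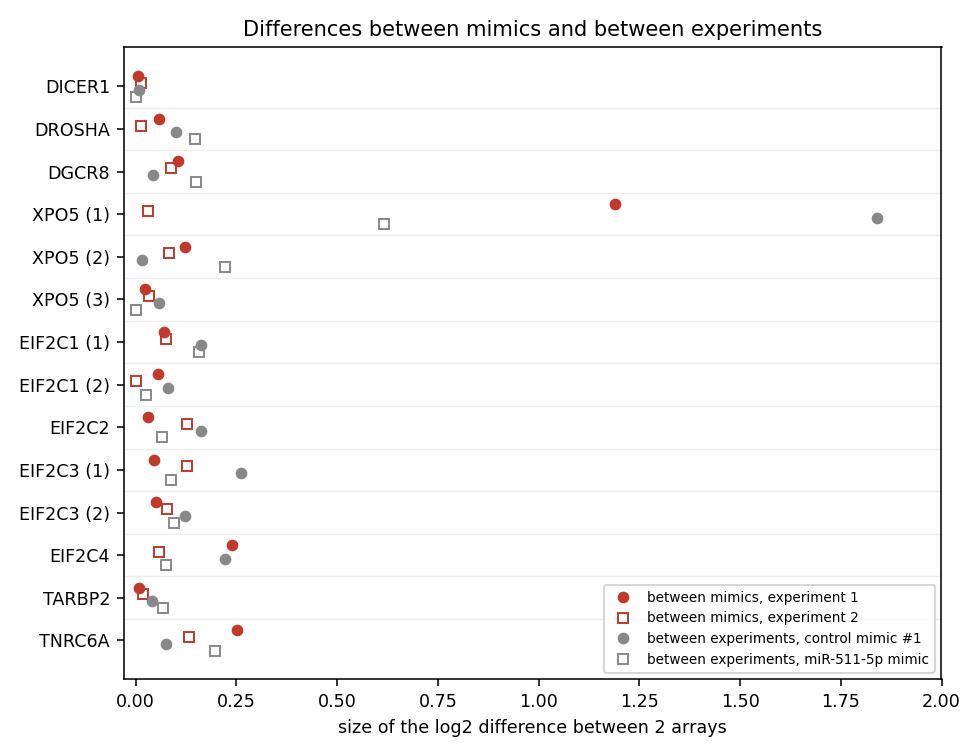
Size of the log2 difference between 2 arrays (x axis) at each probe (rows, numbered as in the plot of intensities), red for miR-511-5p against control mimic #1 within an experiment and gray for experiment 2 against experiment 1 within a mimic. Red points do not stand apart from gray ones, and XPO5 (1) reaches 1.84 between the control arrays.

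Other genes of the pathway were described in 4 lists. Of the 12 partners of Microprocessor and export (22 probes), the 14 tested genes of Dicer partners, tailing and turnover (19 probes), the 17 genes of Argonaute loading and partners (26 probes) and the 28 silencing effectors (38 probes), 0 probes passed the unadjusted threshold of limma in either direction, beside 2.20% of all tested probes. LIN28A, which blocks the maturation of let-7, and 1 probe of LIMD1, a protein that binds Argonaute, were well above background on no array and were not tested. A plain t-test of each probe passed 5 of the 105 tested probes before and 0 after adjustment, beside 3.13% of all tested probes before adjustment. The 5 were those of EIF4ENIF1, PTGES3, PNPT1, FMR1 and TSNAX, with log2FC between -0.039 and 0.16 (named after their values were seen). The other probes of EIF4ENIF1 (0.29) and TSNAX (-0.22) had the opposite sign to the passing ones. Those of PNPT1 (0.095) and FMR1 (0.064) had the same sign. The median log2FC of the lists was 0.029, -0.010, 0.0071 and 0.015, beside 0.019 for the 14 probes and 0.0098 for all tested probes.

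**Figure D5:**
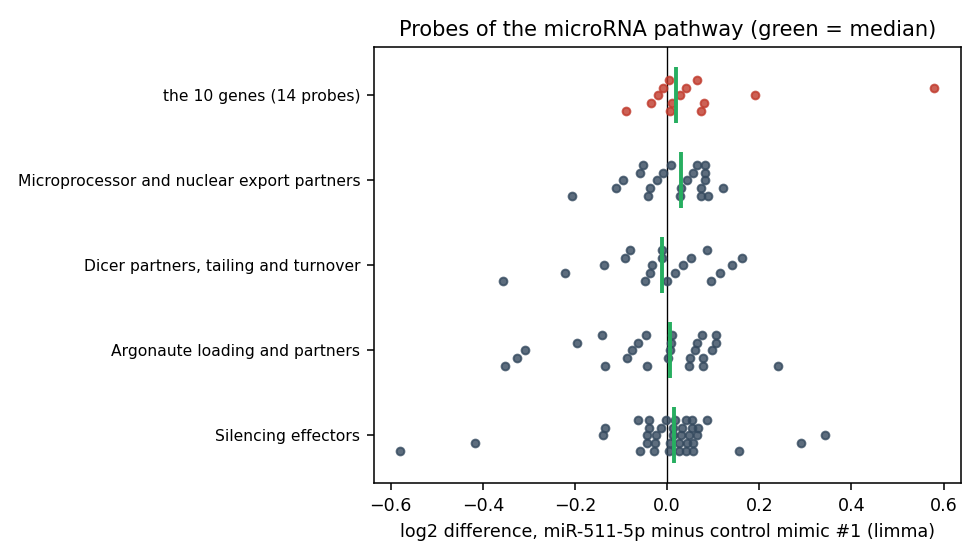
Log2 difference between miR-511-5p and control mimic #1 from limma (x axis) for each tested probe of the 10 genes (red) and of the 4 lists (dark), with the median as a green line. The points crowd around 0, and the farthest are a PAN3 probe at -0.58 and the dimmest XPO5 probe at 0.58.

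In each list, 1 gene is named for its change, the largest of those probes that all 4 arrays placed well above background. KHSRP, an RNA-binding protein that aids the maturation of some miRNAs, had values of 14.64 and 14.75 with miR-511 and 14.64 and 15.16 with control mimic and a log2FC of -0.21 (standard error 0.21). At this probe only the control array of experiment 2 stood off. The dimmer KHSRP probe had 8.39 and 8.60 against 8.55 and 8.55 and a log2FC of -0.052. PRKRA, a partner of DICER1, had 10.39 and 11.21 against 11.14 and 11.18 and a log2FC of -0.36 (standard error 0.30). CDC37, a co-chaperone of HSP90, had 12.29 and 12.92 against 12.88 and 13.03 and a log2FC of -0.35 (standard error 0.24). PAN3, a subunit of the PAN2-PAN3 deadenylase, had 5.69 and 7.31 against 7.07 and 7.09 and a log2FC of -0.58 (standard error 0.57), while its brighter probe had 0.054. For PRKRA, CDC37 and PAN3 the miR-511 array of experiment 1 was the lowest of the 4. It was also the lowest at the brightest HSP90AA1 probe (log2FC -0.33), while the other HSP90AA1 probes had 0.075 and 0.060. The dimmer PABPC4 probe, lowest on the control array of experiment 2, had 0.34, and the brighter one 0.086. The brightest HSP90AA1 probe and the dimmer PABPC4 probe are those named below. Without the miR-511 array of experiment 2, those probes of PRKRA, CDC37 and PAN3 and probes of PAN2 and HSP90AA1 passed the unadjusted threshold, with log2FC between -1.39 and -0.66 and adjusted p between 0.150 and 0.491 from limma. In that fit 6.31% of all tested probes passed, and none of the 10 genes did. Without the control array of experiment 1, the KHSRP probe passed with -0.47, as did probes of STIP1 (-0.46) and PABPC4 (0.74), beside 3.94% of all tested probes. Without the miR-511 array of experiment 1, a probe of JUB passed with 0.73, beside 3.42% of all tested probes. The adjusted p of these 4 probes from limma was 0.80 or higher.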

How the data were processed

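RNA of 4 THP1 cultures was hybridized by the authors to 1-colour Agilent arrays on 1 slide, so that no slide block was needed. The deposited scanner files hold, per spot, an intensity that Agilent Feature Extraction (10.5.1.1 in the submitters' processing notes, 10.7.3.1 in the files) background-subtracted and detrended within the array. A second deposited file holds the authors' quantile-normalized log2 values, in the same rank order as the intensities within every array (Spearman correlation 1). Annotation is hg19.

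With R 4.3.3 and limma 3.58.1, processed intensities of the 43118 spots that are not controls were log2 transformed, spots marked as outliers (232 to 301 per array) were left out, arrays were quantile normalized and spots of one probe averaged. A probe was tested (22638 were) if it had 4 values and if, for 1 mimic or both, neither array placed it near background (a probe printed 10 times counted as above it where more than 50% of its spots did). lmFit and eBayes compared the mimics without a term for the experiment, as the methods name none. P-values are two-sided. The functions were tested on simulated data.

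The experiment number in the labels names independent experiments. Deviations of same-numbered arrays from their mimic means correlated at 0.271 across probes, and the block was run as an alternative. The other alternatives were 75th percentile scaling, normexp (offset 50), no or a stricter filter, outlier spots kept, the deposited table, an intensity trend, a plain equal-variance t-test and leaving out each array. The further condition of the study over identical replicate probes was not used.

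Named were every probe of the 10 genes and, per list, up to 4 genes past the threshold and the one with the largest change. Genes and lists were chosen with earlier results of these data known. Current names came from RefSeq (GRCh38.p14): 14 of 14 probes matched by accession. Some markers of other lineages are not reported here.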

Additional observations from a re-analysis of the deposited data

How the results depend on the processing

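No probe of the 10 genes passed the unadjusted threshold of limma in any setting with all 4 arrays, and no tested probe passed adjustment in any setting. Tested probes past the unadjusted threshold were 498 of 22638 (2.20%), but 265 (1.17%) after normexp and 285 (1.26%) with an intensity trend. When dim probes stayed in, 1029 of 34083 (3.02%) passed. With the replicate block 894 (3.95%) passed, and 0 calls among the 10 genes and the lists changed. Normexp turned the log2FC of the XPO5 probe from 43494424 to 0.021 and of that from 43490583 to -0.011. The plain t-test passed 5 list probes and 708 (3.13%) of all. Leaving dim probes in tested more probes, and a larger share of them passed. The causes of these differences between settings were not tested.

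In the 4 fits that left out 1 array, the lone array of a mimic being assumed to vary like the others, 709 to 1440 probes, 0 to 5 list probes and 0 to 1 probes, thus 0 to 1 genes, of the 10 genes passed; 1440 and 5 came without miR-511 mimic replicate 2, and the 1 (XPO5) without control mimic replicate 2. The log2FC then changed sign for DROSHA (-0.11 to 0.038), DGCR8 (-0.083 to 0.066), XPO5 (-0.34 to 1.5 at the dimmest probe, -0.13 to 0.091 and -0.024 to 0.033 at the others), EIF2C1 (-0.0082 to 0.15 and -0.011 to 0.069), EIF2C2 (-0.0017 to 0.16), EIF2C3 (-0.090 to 0.17 at the dimmer probe), EIF2C4 (-0.20 to 0.021) and TARBP2 (-0.028 to 0.039). All 14 probes were well above background on all 4 arrays, and the number of arrays limits the precision.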
